A study of Homo sapiens with 24 samples.

Results

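The interferon-stimulated genes described here are IFIT1, IFIT2, IFIT3, ISG15, MX1, OAS1, IRF1, IRF7, and IFI6, chosen by gene symbol from the deposited table of gene counts. These are 9 of its 26645 gene entries, each symbol matched 1 entry, and all 9 passed the filter on low counts that left 14741 genes to test. RNA was measured in 24 libraries from the breast cancer cell line MB468 (MDA-MB-468), which depends on methionine (Met), and from MB468res-R8 (MDA-MB-468res-R8), a single revertant clone of it able to grow with homocysteine (Hcy), the precursor of Met, in place of Met. Both lines were grown with dialyzed serum, vitamin B12, glutamine, and cysteine. At 0 h they were in Met+ medium with 100 µM Met, and at 0.5, 2, and 12 h they were in Met-Hcy+ medium, which held 370 µM DL-homocysteine and no Met. No cell was treated with an interferon, according to the labels. There were 3 libraries in each of the 8 groups, and the labels do not say whether replicates are separate cultures, so the p-values measure the spread between these libraries. Cells left in Met+ medium over 12 h are not among the libraries, so Met stress and time after the change of medium cannot be told apart, and 1 revertant clone does not represent revertants in general.

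Interferons are secreted proteins that bind receptors on the cell surface and activate the kinases JAK1, TYK2, and JAK2. Type I and III interferons thereby assemble a complex that includes STAT2 and IRF9 and binds the interferon-stimulated response element in the promoters of antiviral genes, while interferon gamma acts on a different site. Several interferon-stimulated genes are also read at a low level without interferon, and members of the IRF family can bind the same element directly. In epithelial cells such as these the genes are best known as antiviral effectors, and in breast cancer their basal level differs widely between tumors.

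Library totals over genes ran from 11713037 to 36402932 counts (median 20452797). Normalized counts are counts scaled from each library's effective size, which is its total times edgeR's TMM factor, to the average effective size. A single count was worth between 0.611 and 1.94 normalized counts, so IFIT1, IFIT2, IRF7, and IFI6, each under 20 normalized counts on average in MB468 at 0 h, carry large counting error there. In 1 library, MB468 at 2 h replicate 2, the small nuclear RNA gene RN7SK had 8251 counts, against 44 to 357 in the others. The 12 breast epithelial markers were EPCAM, CDH1, EGFR, and keratins of basal and of luminal type. Each reached 1 CPM (a count scaled to a common library total) in at least 1 group. Together they summed to between 10712 and 14241 CPM over the groups, a sum that does not mark basal cells alone. The 3 hormone receptor and HER2 markers summed to between 45.9 and 110 CPM, led by ERBB2 with up to 88.3 CPM. PGR among them had at most 2 counts in a library. Of 7 leukocyte markers 6 stayed under 1 CPM in every group, PTPRC had at most 7 counts, and the list's sum of 22.9 to 152 CPM was nearly all CD14. The sum of 7 fibroblast and endothelial markers was 18.8 to 70.6 CPM, led by COL1A1 with up to 65.4 CPM. CD14 was higher in MB468 than in MB468res-R8 and COL1A1 lower, and the part of either in the differences below was not tested.

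IFIT2 (chromosome 10, 89302046 to 89309271), IFIT3 (89327997 to 89340968), and IFIT1 (89392623 to 89406487) lie in this order in the same region on the plus strand of GRCh38. ISG15 lies on chromosome 1 (1013497 to 1014540), IFI6 on chromosome 1 (27666064 to 27672192, minus strand), IRF1 on chromosome 5 (132481609 to 132490773, minus strand), IRF7 on chromosome 11 (612555 to 615950, minus strand), OAS1 on chromosome 12 (112906962 to 112933219), and MX1 on chromosome 21 (41420558 to 41459214). The library kit does not mark strand, so reads from exons that overlap another gene cannot be assigned to either. The exons of IRF1 share 2805 bases with the antisense RNA IRF1-AS1, those of MX1 share 562 with TMPRSS2, and those of IFIT2 and IFIT3 share 65 and 94 with LIPA. A long noncoding RNA on the same strand shares 524 bases with exons of IFIT2, and LINC02574, also on the same strand, shares 216 with those of IFI6.

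RefSeq promoter sequences on GRCh38.p14 were at hand for 7 of the 9 genes, and the 250 bases before the start are shown for those with which the results differ most between the lines or over time. IFIT2 and IRF7 had no entry. Capitals mark 2 motifs searched on both strands: the core of the interferon-stimulated response element, GAAANNGAAA (TTTCNNTTTC on the other strand), which occurs in 3.02% of 35116 such promoter stretches, and the interferon-gamma activated site, TTCNNNGAA, which occurs in 6.57%. A match is a description of the letters and not a measured site.
IFIT1, chr10:89392373-89392622, plus strand: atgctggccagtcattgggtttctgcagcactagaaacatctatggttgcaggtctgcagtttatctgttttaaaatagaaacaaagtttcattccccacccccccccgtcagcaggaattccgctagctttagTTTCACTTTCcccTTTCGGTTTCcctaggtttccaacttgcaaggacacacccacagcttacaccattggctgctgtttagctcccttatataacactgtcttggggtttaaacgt
IFIT3, chr10:89327747-89327996, plus strand: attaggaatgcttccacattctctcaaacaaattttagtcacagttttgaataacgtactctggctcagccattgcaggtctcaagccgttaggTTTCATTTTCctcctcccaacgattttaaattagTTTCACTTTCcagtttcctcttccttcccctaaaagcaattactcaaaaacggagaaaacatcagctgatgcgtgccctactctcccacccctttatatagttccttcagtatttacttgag
ISG15, chr1:1013247-1013496, plus strand: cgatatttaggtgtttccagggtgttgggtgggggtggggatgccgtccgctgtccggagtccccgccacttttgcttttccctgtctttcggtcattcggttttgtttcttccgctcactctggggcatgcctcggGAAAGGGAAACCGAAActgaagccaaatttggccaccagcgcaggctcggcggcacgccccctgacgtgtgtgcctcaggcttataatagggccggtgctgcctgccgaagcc
OAS1, chr12:112906712-112906961, plus strand: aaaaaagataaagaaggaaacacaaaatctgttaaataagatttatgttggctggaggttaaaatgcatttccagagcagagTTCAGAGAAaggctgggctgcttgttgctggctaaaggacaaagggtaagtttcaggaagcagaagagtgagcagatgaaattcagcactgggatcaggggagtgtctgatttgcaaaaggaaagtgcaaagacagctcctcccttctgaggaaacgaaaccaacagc
IRF1, chr5:132490774-132491023, minus strand: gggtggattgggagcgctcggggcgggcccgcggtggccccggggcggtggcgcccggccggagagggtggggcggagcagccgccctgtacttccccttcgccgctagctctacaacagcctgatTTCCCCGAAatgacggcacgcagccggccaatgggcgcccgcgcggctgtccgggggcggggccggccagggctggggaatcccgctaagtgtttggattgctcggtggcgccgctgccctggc
The IFIT1, IFIT3, and ISG15 stretches hold 2 response element cores each, with those of ISG15 overlapping. OAS1 and IRF1 hold no core of this exact spelling in this window and 1 gamma-activated site each. The search asked for a gap of exactly 2 bases, so gaaacgaaa near the end of the OAS1 stretch, with a gap of 1, is not marked. IFI6 held 3 cores, the second listed start of IFIT3 held 2, and of the 3 listed starts of MX1 only the third held a core of this spelling. The second listed start of MX1 holds tttcgtttc and tttcatttc, also with a gap of 1 and so not counted.

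**Figure D1:**
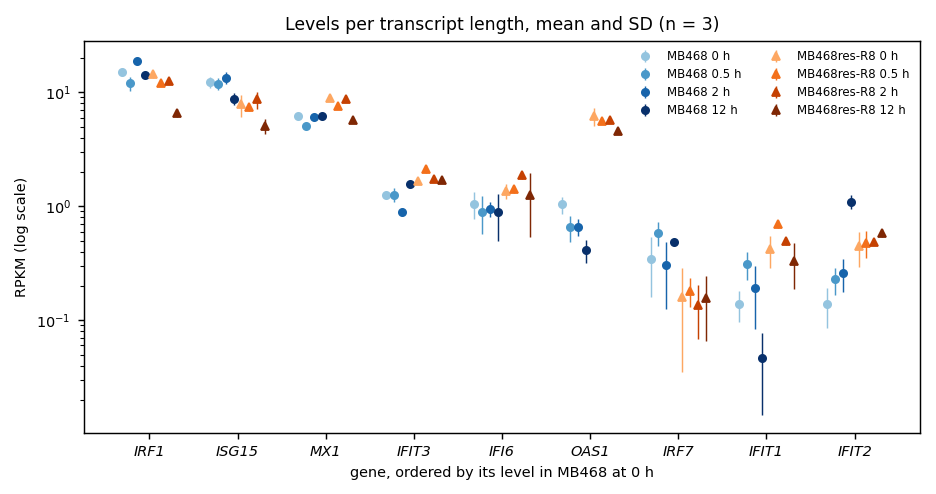
Level of each gene as RPKM (CPM per kilobase of its main transcript, log scale), as mean and SD of 3 libraries for each of the 8 groups, with circles for MB468, triangles for MB468res-R8, and darker shades for later times. IRF1, ISG15, and MX1 lie highest in MB468, and OAS1 is the gene whose 2 lines lie farthest apart at 0 h.

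Per transcript length, as RPKM (CPM per kilobase of the main annotated transcript, computed here), the 9 genes ranged widely in MB468 at 0 h. IRF1, a transcription factor induced by interferon gamma, had 15.2 ± 1.28 RPKM (SD, n = 3, as for all means below), ISG15, a ubiquitin-like protein that is joined to other proteins, had 12.3 ± 1.35, and MX1, a dynamin-like GTPase that blocks viral replication, had 6.22 ± 0.338. IFIT3 had 1.24 ± 0.0425, IFI6 1.05 ± 0.276, and OAS1 1.04 ± 0.179 RPKM. IRF7, IFIT1, and IFIT2 were lowest with 0.346 ± 0.187, 0.140 ± 0.0424, and 0.138 ± 0.0521 RPKM. In MB468res-R8 at 0 h, OAS1 was at 6.14 ± 1.07 RPKM, close to MX1 (8.93 ± 0.541) and ISG15 (7.83 ± 1.71), and IRF7 was the lowest gene with 0.160 ± 0.125. All RNA levels are averages over the culture, in which fewer expressing cells and less RNA per cell cannot be told apart.

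The comparison of the lines in Met+ medium asks how far the revertant clone differs before Met stress. At 0 h, 5 of the 9 genes were higher in MB468res-R8 and 2 were lower. Among all 14741 genes 26.4% were higher and 27.1% lower at an adjusted p under 0.05, and the 9 genes had a median log2 fold change of 0.42 beside -0.00061 over all genes. The higher genes were the antiviral effectors OAS1, IFIT1, IFIT2, IFIT3, and MX1. ISG15 and IRF7 were lower, and neither IRF1 nor IFI6 passed the test. All tests are quasi-likelihood tests in edgeR, with p-values adjusted by Benjamini-Hochberg across the 14741 genes, and ± after a log2 fold change is its standard error. Statements on overlap compare the ranges of the libraries in the groups named, and the share of all genes without overlap was not computed.

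OAS1, which makes the oligoadenylates that activate RNase L, had 31.4, 44.6, and 39.3 normalized counts in the MB468 libraries at 0 h and 262, 236, and 184 in those of MB468res-R8. Every MB468res-R8 library was more than 4 times as high as the highest MB468 library. The log2 fold change was 2.57 ± 0.16, a fold of 5.93 (adjusted p = 3.73e-17). IFIT1 binds viral RNA with an incompletely methylated cap. It had 8.97, 15.1, and 16.9 normalized counts in MB468 and 42.8, 52.6, and 27.5 in MB468res-R8, with no overlap, and the log2 fold change was 1.62 ± 0.36 (adjusted p = 0.000196). IFIT2, a related protein that forms complexes with IFIT1 and IFIT3 and can promote cell death, had 14.4, 6.37, and 11.2 against 24.6, 31.3, and 47.1, also with no overlap. Its log2 fold change was 1.67 ± 0.32 (adjusted p = 2.64e-05). The 2 genes were thus about 3-fold higher in MB468res-R8, from raw counts of 8 to 54 per library.

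MX1 and IFIT3 differed less, but their libraries also did not overlap. MX1 had 384, 378, and 417 normalized counts in MB468 and 572, 594, and 527 in MB468res-R8 (log2 fold change 0.53 ± 0.07, adjusted p = 3.54e-08). IFIT3, which binds IFIT1 and stabilizes it, had 66.1 to 70.3 and 86.1 to 95.4 (log2 fold change 0.42 ± 0.15, adjusted p = 0.0150). The IFIT3 call was lost with a spike-in factor as covariate (0.37, adjusted p = 0.0548) or without a low-count filter (0.41, adjusted p = 0.0653). With spike-in totals as library sizes, which put the median of all genes at -0.31, MX1 was at 0.21 (adjusted p = 0.216) and IFIT3 at 0.11 (adjusted p = 0.701). Neither gene passed with these library sizes. Setting their values against that median largely undoes the spike-in scaling, so it cannot serve as a separate check of the differences.

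ISG15 went the other way, with 156, 189, and 191 normalized counts in MB468 and 139.6, 111, and 90.2 in MB468res-R8 (log2 fold change -0.63 ± 0.15, adjusted p = 0.000474). CD14 had 3456 ± 163 and 1125 ± 72.2 normalized counts in the same groups. IRF7, which drives the transcription of type I interferon genes, had 24.2, 12.7, and 8.43 against 2.38, 5.59, and 13.1, from 3 to 27 raw counts, and its libraries overlapped. Its log2 fold change of -1.28 ± 0.50 (adjusted p = 0.0299) lost the call without MB468 0 h replicate 1 (-0.77, adjusted p = 0.285), MB468res-R8 0 h replicate 1 (-0.78, adjusted p = 0.239), or MB468res-R8 0 h replicate 2 (-1.19, adjusted p = 0.0860). IRF1 had 1144 to 1344 and 1113 to 1262 normalized counts, and the 95% interval of its difference was -0.23 to 0.06 on the log2 scale, but with spike-in totals as library sizes it passed as lower (-0.39, adjusted p = 0.0106). IFI6, a small membrane protein that limits some RNA viruses, had 15.5 to 25.1 and 20.6 to 27.5, with an interval of -0.35 to 1.01.

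**Figure D2:**
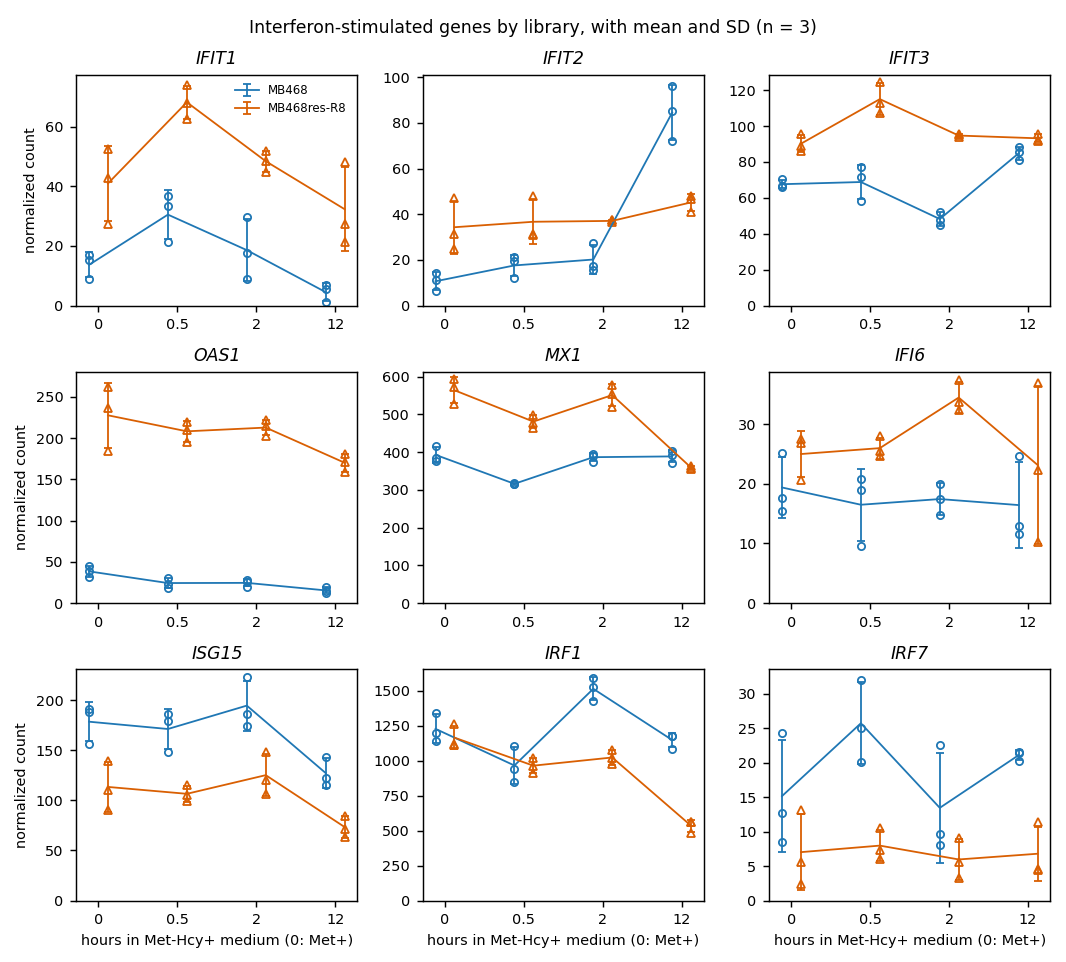
Normalized counts of the 9 genes in every library by hours in Met-Hcy+ medium, with 0 for Met+ medium (circles, MB468; triangles, MB468res-R8; lines and bars, mean and SD of 3 libraries; times are evenly spaced, and vertical axes start at 0 and differ between panels). IFIT2 rises to 84.5 in MB468 at 12 h, IRF1 falls to 535 in MB468res-R8 at 12 h, and OAS1 stays apart between the lines at every time.

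The course in MB468 shows how the genes behaved in the cell line that stops proliferating in Met-Hcy+ medium. At 0.5 h, 1 of the 9 genes was higher and 3 were lower, where 17.6% of all genes were higher and 16.4% lower. IFIT1 rose from 13.7 ± 4.15 to 33.5, 36.9, and 21.2 normalized counts, all above the 0 h libraries (log2 fold change 1.23 ± 0.37, adjusted p = 0.00849). Without MB468 0 h replicate 1 the log2 fold change was 0.98 (adjusted p = 0.0681). IRF1 fell from 1228 ± 104 to 966 ± 131 (log2 fold change -0.33 ± 0.08, adjusted p = 0.000689), and MX1 from 393 ± 21.3 to 316 ± 2.08 (-0.31 ± 0.08, adjusted p = 0.00125). OAS1 fell from 38.5 ± 6.65 to 24.3 ± 6.13 (-0.75 ± 0.22, adjusted p = 0.00656). That call was lost without MB468 0.5 h replicate 1 (-0.56, adjusted p = 0.0982) or MB468 0 h replicate 2 (-0.61, adjusted p = 0.0645).

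At 2 h, 1 of the 9 genes was higher and 2 were lower in MB468, against 8.88% and 7.47% of all genes. IRF1 had 1528, 1426, and 1590.1 normalized counts, above each 0 h library, and rose by 0.30 ± 0.07 on the log2 scale (adjusted p = 0.00332), though with spike-in totals as library sizes its value was -0.13 (adjusted p = 0.408) while the median of all genes was -0.42. IFIT3 fell from 67.6 ± 2.31 to 48.2 ± 3.88 (log2 fold change -0.47 ± 0.17, adjusted p = 0.0433) and OAS1 to 24.5 ± 4.14 (-0.66 ± 0.23, adjusted p = 0.0431). Both falls were close to the threshold. The call of IFIT3 was lost without any 1 of the 6 libraries compared (adjusted p of up to 0.139), and that of OAS1 without MB468 0 h replicate 2 (-0.51, adjusted p = 0.249) or replicate 3 (-0.65, adjusted p = 0.0745) or without MB468 2 h replicate 2 (-0.68, adjusted p = 0.0862) or replicate 3 (-0.51, adjusted p = 0.235). DESeq2's Wald test called 1 gene, IRF1, in this comparison. IFIT2 was at 17.5, 15.5, and 27.5 normalized counts, above each 0 h library, with a log2 fold change of 0.97 ± 0.36 that did not pass (adjusted p = 0.0567). It passed without MB468 0 h replicate 1 (1.31, adjusted p = 0.0284), MB468 2 h replicate 2 (1.10, adjusted p = 0.0485), or MB468res-R8 0 h replicate 3 (0.97, adjusted p = 0.0457).

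At 12 h in MB468, 2 of the 9 genes were higher and 3 lower, where 36.1% of all genes were higher and 34.7% lower. Changes in both directions were thus not particular to these genes. IFIT2 rose from 14.4, 6.37, and 11.2 to 72.1, 85.2, and 96.3 normalized counts. Its lowest 12 h library was about 5 times its highest 0 h library, and the fold was 7.99, with a 95% interval of 2.43 to 3.56 on the log2 scale (adjusted p = 4.22e-12). IFIT1, from the same region of chromosome 10, fell from 8.97, 15.1, and 16.9 to 5.50, 1.08, and 6.97, where 1.08 stands for 1 read (-1.41 ± 0.46 on the log2 scale, adjusted p = 0.00635). IFIT3, which lies between them, moved from 67.6 ± 2.31 to 84.8 ± 3.64 (0.34 ± 0.14, adjusted p = 0.0337), a call that 11 of 24 leave-one-out fits lost, with adjusted p of up to 0.0963, and that DESeq2's Wald test did not make (adjusted p = 0.0789). The calls of IFIT2 and IFIT1 were kept in all 24 of those fits.

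OAS1 and ISG15 also fell in MB468 by 12 h. OAS1 went from 31.4, 44.6, and 39.3 to 14.1, 19.4, and 12.7 normalized counts (-1.37 ± 0.22 on the log2 scale, adjusted p = 6.17e-07), and ISG15 from 156, 189, and 191 to 123, 115, and 144 normalized counts (-0.48 ± 0.14, adjusted p = 0.00334). CD14 fell from 3456 ± 163 to 1447 ± 155 over the same time. MX1 was at 389 ± 16.1 normalized counts, with a 95% interval of -0.15 to 0.13 for its log2 fold change, and IRF1 at 1148 ± 53.3, with an interval of -0.25 to 0.04. With only the 0 and 12 h groups of MB468 in the fit, IRF1 passed (-0.12, adjusted p = 0.0477). The intervals of IRF7 (-0.36 to 1.21) and IFI6 (-0.91 to 0.45) were several times wider. With spike-in totals as library sizes the median of all genes was -0.23, and IRF1 then passed as lower (-0.33, adjusted p = 0.0247).

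In MB468res-R8, which keeps proliferating in Met-Hcy+ medium, 1 of the 9 genes was higher and 2 were lower at 0.5 h, against 17.4% and 16.3% of all genes. MX1 fell from 564 ± 34.2 to 481 ± 17.4 normalized counts (-0.23 ± 0.07, adjusted p = 0.00893), a call lost without MB468res-R8 0 h replicate 2 (-0.20, adjusted p = 0.0547). IRF1 fell from 1165 ± 83.6 to 965 ± 54.7 (-0.27 ± 0.08, adjusted p = 0.00580). Both genes also fell in MB468 at 0.5 h. IFIT3 was at 115 ± 8.84 against 90.1 ± 4.79 (0.35 ± 0.14, adjusted p = 0.0485), but 22 of 24 leave-one-out fits lost that call, with adjusted p of up to 0.180, as did DESeq2's Wald test (adjusted p = 0.0987). IFIT1 had 68.0, 73.8, and 62.6 normalized counts, above the 42.8, 52.6, and 27.5 at 0 h, and did not pass (0.72 ± 0.30, adjusted p = 0.0596). It passed with only the groups compared in the fit (0.72, adjusted p = 0.0140), and without MB468 2 h replicate 1 (adjusted p = 0.0462), MB468 2 h replicate 3 (adjusted p = 0.0442), or MB468res-R8 0 h replicate 2 (adjusted p = 0.0396).

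At 2 h in MB468res-R8, edgeR's test and DESeq2's Wald test each called 0 of the 9 genes, and 1 gene, IRF1, had an unadjusted p under 0.05. Few genes changed here in all, with 2.52% higher and 1.85% lower. IRF1 was at 1023 ± 53.4 normalized counts (log2 fold change -0.19 ± 0.08, adjusted p = 0.209), below each 0 h library. IFI6 was at 37.3, 32.4, and 33.6, above each 0 h library (0.48 ± 0.33, adjusted p = 0.601).

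By 12 h, 0 of the 9 genes were higher and 4 were lower in MB468res-R8, where 30.2% of all genes were higher and 31.1% lower. IRF1 fell from 1121, 1113, and 1262 to 561, 484, and 559.8 normalized counts, less than the lowest library of any other group, a log2 fold change of -1.12 ± 0.08 (adjusted p = 2.41e-14). MX1 fell from 572, 594, and 527 to 356, 363, and 358 (-0.66 ± 0.07, adjusted p = 2.18e-10). ISG15 fell from 139.6, 111, and 90.2 to 71.5, 63.8, and 85.0 (-0.64 ± 0.16, adjusted p = 0.000772), and OAS1 from 262, 236, and 184 to 159, 171, and 180.3 (-0.43 ± 0.13, adjusted p = 0.00558). All 4 falls were without overlap of libraries, and the share of all genes without overlap was not computed. The call of OAS1 was lost without MB468res-R8 0 h replicate 1 (-0.29, adjusted p = 0.104). CD14 fell from 1125 ± 72.2 to 512 ± 31.0 normalized counts. The 3 IFIT genes did not pass: IFIT2 had 46.5, 41.0, and 48.1 normalized counts at 12 h and 24.6, 31.3, and 47.1 at 0 h (0.44 ± 0.26, adjusted p = 0.146), and passed without MB468res-R8 0 h replicate 3 (0.71, adjusted p = 0.0316). IFIT1 was at 32.3 ± 14.0 and IFIT3 at 93.2 ± 2.20.

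**Figure D3:**
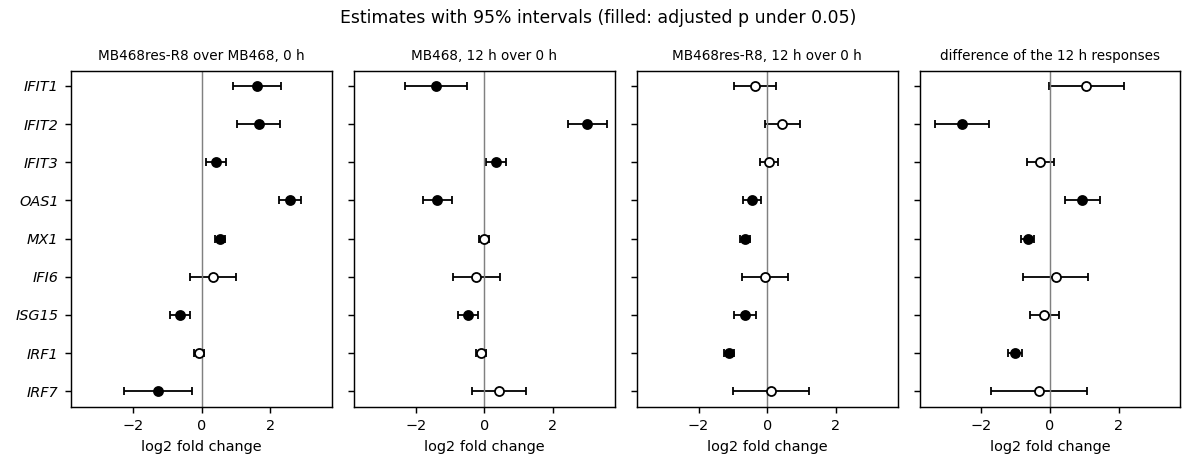
Log2 fold changes of the 9 genes with 95% intervals in 4 comparisons, filled where the adjusted p was under 0.05. The difference of the 12 h responses is the 12 h change of MB468res-R8 minus that of MB468, and IFIT2 lies farthest to its negative side with -2.56.

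The difference between the lines in their response asks whether the courses themselves differ. It is the change from 0 h in MB468res-R8 minus that in MB468, fitted as 1 contrast. At 0.5 h 0 of the 9 genes passed by edgeR's test or by DESeq2's Wald test, against 1.20% higher and 1.70% lower among all genes, and 1 gene, OAS1, had an unadjusted p under 0.05. At 2 h 0 were higher and 1 was lower, against 2.19% and 2.88%. That gene was IRF1, which rose in MB468 and was below its 0 h level in MB468res-R8 (log2 difference -0.49 ± 0.11, adjusted p = 0.00250). With spike-in totals as library sizes its difference was -0.11 (adjusted p = 0.652), where the median of all genes was 0.38.

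At 12 h the responses of 4 genes differed, 1 more positive and 3 more negative in MB468res-R8, where 26.2% and 30.3% of all genes differed in these directions. IFIT2 rose in MB468 and did not pass in MB468res-R8, and its difference was -2.56 ± 0.40 (adjusted p = 5.72e-07). IRF1 fell in MB468res-R8 and did not pass in MB468, with a difference of -1.01 ± 0.11 (adjusted p = 5.47e-10). MX1 showed the same contrast (-0.65 ± 0.10, adjusted p = 6.12e-07), which with spike-in totals was -0.38 (adjusted p = 0.139) beside a median of 0.20 for all genes. OAS1 fell in both lines but less in MB468res-R8, so that its difference was 0.94 ± 0.26 (adjusted p = 0.00194). ISG15 fell in both lines, and the 95% interval of its difference was -0.59 to 0.26. IFIT1 did not pass (1.06 ± 0.56, adjusted p = 0.104), but passed without MB468res-R8 12 h replicate 1 (1.34, adjusted p = 0.0398).

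After 12 h in Met-Hcy+ medium the lines differed in 6 of the 9 genes, 2 higher and 4 lower in MB468res-R8, against 33.9% and 39.2% of all genes. OAS1 was 11.4-fold higher in MB468res-R8 (log2 fold change 3.51 ± 0.18, adjusted p = 2.09e-20) and IFIT1 6.37-fold (2.67 ± 0.40, adjusted p = 1.91e-07). IFIT2, which had been higher in MB468res-R8 at 0 h, was now lower there (-0.90 ± 0.23, adjusted p = 0.000787), with 41.0 to 48.1 normalized counts against 72.1 to 96.3. IRF1 was lower (-1.10 ± 0.08, adjusted p = 7.71e-15), as were ISG15 (-0.80 ± 0.16, adjusted p = 2.10e-05) and IRF7 (-1.60 ± 0.46, adjusted p = 0.00194). MX1, with 371 to 403 normalized counts in MB468 and 356 to 363 in MB468res-R8, did not pass (-0.12 ± 0.07, adjusted p = 0.130). IFIT3 was at 80.9 to 88.1 and 91.6 to 95.7 (0.13 ± 0.14, adjusted p = 0.392). IFI6 did not pass (0.49 ± 0.34, adjusted p = 0.190), and passed without MB468 12 h replicate 3 (0.95, adjusted p = 0.0309) or MB468res-R8 12 h replicate 2 (0.82, adjusted p = 0.0299).

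Set in order over the 8 groups, the means of OAS1 were highest in the 4 groups of MB468res-R8 (170.1 ± 10.6 to 228 ± 39.7 normalized counts), and all 4 lay above all groups of MB468 (15.4 ± 3.56 to 38.5 ± 6.65). Of the 7 steps between neighbors in that order 3 were without overlap of libraries. IFIT1 had the same split in its means, from 32.3 ± 14.0 to 68.2 ± 5.59 and from 4.52 ± 3.07 to 30.5 ± 8.27, but libraries of MB468 at 0.5 and 2 h overlapped with those of MB468res-R8 at 0 and 12 h. IFIT2 was highest in MB468 at 12 h, apart from MB468res-R8 at 12 h, and the other neighbors from rank 3 down overlapped. IRF1 was highest in MB468 at 2 h (1515 ± 82.7) and lowest in MB468res-R8 at 12 h (535 ± 44), and both stood apart from their neighbors. MX1 ranged 1.78-fold from the lowest to the highest mean, the smallest span of the 9, and IFIT1 ranged 15.1-fold, the largest. For IRF7 all 7 neighboring pairs overlapped, and for IFI6 6 of 7.

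Across the 24 libraries the 9 genes did not move as 1 group. Pearson correlations of log2 CPM between the 36 pairs ranged from -0.79 (OAS1 and IRF7) to 0.78 (OAS1 and IFIT1), with a median of 0.07 and 18 pairs above 0. They rest on 8 groups of 3 libraries and are given as descriptions. IFIT1 and IFIT2 correlated at -0.15, IFIT1 and IFIT3 at 0.50, and IFIT2 and IFIT3 at 0.55. ISG15 and IRF1 correlated at 0.74.

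The other genes of the interferon response come from lists written with earlier results of these data known. Of 49 other interferon-stimulated effectors 41 were tested. At 0 h 26 of them were higher and 7 lower in MB468res-R8, against 26.4% and 27.1% of all genes, with a median log2 fold change of 0.36 beside -0.00061 for all genes. Among those called with a mean of at least 1 CPM, the largest differences to the higher side were DDX60L (2.76 ± 0.21), IFI44 (2.70 ± 0.27), and DDX60 (2.53 ± 0.42, all adjusted p at most 1.33e-05), DDX60 being a helicase of the RIG-I pathway. The largest of them to the lower side were IFITM1, a membrane protein that blocks viral entry, with 377 ± 19.2 and 66.1 ± 10.2 normalized counts (-2.51 ± 0.12, adjusted p = 1.13e-20), TRIM22 (-0.80), and PARP12 (-0.56). Among the effectors, as among the 9 genes, more were thus higher than lower, and both directions occurred.

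**Figure D4:**
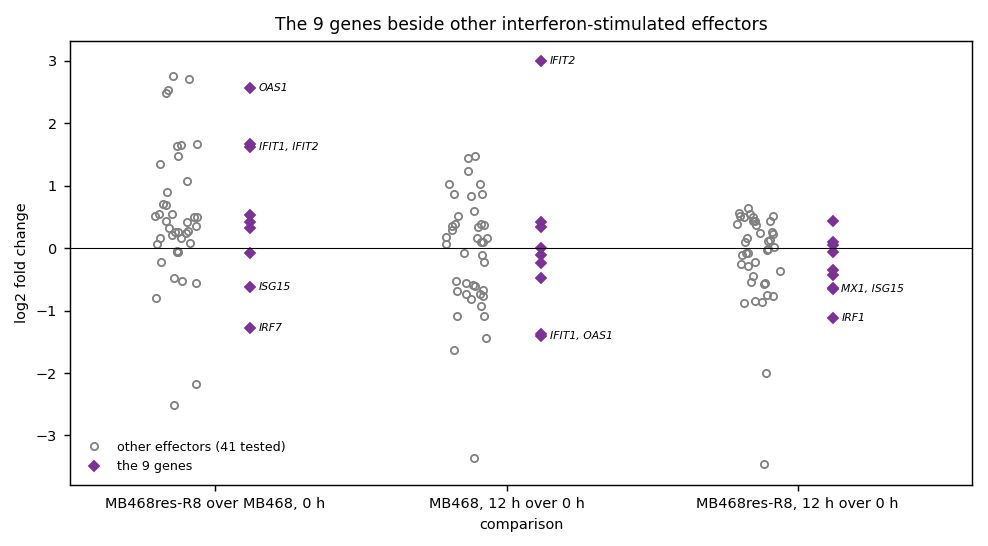
Log2 fold changes of the 9 genes (diamonds, named where they exceed 0.6 in size) beside 41 other interferon-stimulated effectors (open circles) in 3 comparisons. The effectors lie on both sides of 0 in each comparison, and OASL is the circle near -3.4 in both 12 h comparisons.

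At 12 h, 19 of these 41 effectors were higher and 15 lower in MB468, with a median log2 fold change of 0.09, and 14 were higher and 13 lower in MB468res-R8, with a median of 0.02. Among all genes 36.1% were higher and 34.7% lower in MB468, and 30.2% and 31.1% in MB468res-R8. The counts in MB468res-R8 lie near these shares. In MB468 the share of higher effectors was somewhat above that of all genes, a difference that was not tested. In MB468 the rises were led by TRIM21 (1.48 ± 0.12, adjusted p = 7.06e-14), a cytosolic antibody receptor, DDX60L (1.45 ± 0.22), and DDX60 (1.23 ± 0.45). In MB468res-R8 they were led by PNPT1 (0.65), EIF2AK2, the kinase that halts translation on double-stranded RNA (0.55), and SAMD9 (0.52). OASL, a relative of OAS1 without its enzyme activity, had the largest fall in both lines. It had 68.5 ± 6.68, 16.2 ± 2.45, 126 ± 4.38, and 6.49 ± 1.44 normalized counts at 0, 0.5, 2, and 12 h in MB468, and 379 ± 64.4, 45.2 ± 5.44, 434 ± 93.1, and 34.8 ± 7.90 in MB468res-R8. Its log2 fold change at 12 h was -3.36 ± 0.25 (adjusted p = 3.58e-15) and -3.46 ± 0.17 (adjusted p = 1.73e-20). TRIM22 fell in both lines too, by 1.44 and 2.00 on the log2 scale. The 12 h responses of 18 effectors differed between the lines, 9 in each direction (26.2% of all genes were more positive in MB468res-R8 and 30.3% more negative), led by TRIM5 (0.70) and ZNFX1 (0.64) on one side and IFIT5 (-1.28) and TRIM21 (-1.04) on the other. IFIT5, a further member of the IFIT family, had means of 87.6 and 174 normalized counts in MB468 at 0 and 12 h, and of 159 and 133 in MB468res-R8.

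At 0.5 h 6 of the 41 effectors were higher and 8 lower in MB468, where 17.6% and 16.4% of all genes were, and 4 were higher and 8 lower in MB468res-R8, against 17.4% and 16.3%. At 2 h the counts were 3 higher and 3 lower in MB468, led by OASL (0.89 ± 0.17) and ZNFX1 (-0.50 ± 0.05), and 3 higher and 1 lower in MB468res-R8, led by SAMD9 (0.71 ± 0.13). The shares of all genes at 2 h were 8.88% and 7.47% in MB468 and 2.52% and 1.85% in MB468res-R8. The smaller counts at 2 h thus go with smaller shares over all genes.

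None of the 13 interferon ligands passed the filter on low counts. In every group each was under 1 CPM, 7 had no count in any library, and IFNE, the epithelial type I interferon, was the highest with 3.69 ± 1.65 mean normalized counts in MB468res-R8 at 12 h. At these depths transcripts of these 13 ligands were not detectable beyond such traces, and interferon genes outside this list were not examined. All 12 receptor, kinase, and STAT genes were tested. At 0 h 7 were higher and 2 lower in MB468res-R8, against 26.4% and 27.1% of all genes. Among the higher were JAK2 (0.93 ± 0.11), STAT2 (0.55 ± 0.07), and JAK1 (0.48 ± 0.04), and IFNGR1 (-0.45 ± 0.05) and TYK2 (-0.30 ± 0.04) were lower. STAT2 went from 741 ± 53.2 to 445 ± 21.0 normalized counts by 12 h in MB468 (-0.73 ± 0.07, adjusted p = 5.78e-12) and from 1081 ± 59.0 to 632 ± 24.4 in MB468res-R8 (-0.77 ± 0.07, adjusted p = 1.09e-12). IFNLR1, the receptor chain of type III interferons, rose in both lines (0.98 ± 0.09 and 0.57 ± 0.10). IFNAR2 fell by 0.28 in MB468 and rose by 0.34 in MB468res-R8, and the difference of 0.62 ± 0.10 passed (adjusted p = 2.47e-06).

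Of 14 tested genes of nucleic acid sensing 6 were higher and 4 lower in MB468res-R8 at 0 h (26.4% and 27.1% of all genes), led by MB21D1, the DNA sensor cGAS (1.08 ± 0.19), and by SAMHD1, which degrades nucleotides (-1.28 ± 0.08). At 12 h 4 rose and 4 fell in MB468, where 36.1% of all genes were higher and 34.7% lower, led by IFIH1, the RNA sensor MDA5 (1.44 ± 0.11), MB21D1 (1.29 ± 0.18), and TMEM173, the adaptor STING (-0.67 ± 0.08). In MB468res-R8 4 rose and 7 fell, against 30.2% and 31.1% of all genes, among them MB21D1 (0.76 ± 0.17) and DHX58 (-1.33 ± 0.32). The 12 h responses of 8 sensing genes differed, 4 in each direction, against 26.2% and 30.3% of all genes. IFIH1 (-1.28 ± 0.15, adjusted p = 1.81e-09) and DHX58 (-1.98 ± 0.44, adjusted p = 0.000172) were less positive in MB468res-R8, and TBK1, a kinase that activates IRF3 (0.55 ± 0.10), DDX58, the RNA sensor RIG-I (0.46 ± 0.13), and IRF3 (0.44 ± 0.08) were more positive. Of the 10 brakes of interferon signaling 2 were higher and 3 lower at 0 h (26.4% and 27.1% of all genes), with SOCS3 at 0.66 ± 0.17 and USP18, which removes ISG15 from proteins, at -0.26 ± 0.08. At 12 h 3 brakes rose and 3 fell in MB468, and 4 rose and 2 fell in MB468res-R8, where the shares of all genes were those given above for 12 h. PIAS1 (0.42 in MB468 and 0.65 in MB468res-R8) and the phosphatase gene PTPN2 (0.36 and 0.47) rose in both lines, and PTPN6, another phosphatase gene, fell in both (-1.36 and -0.72).

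In the IRF family 7 of 9 genes were tested, and IRF4 and IRF8 were not. At 0 h IRF5 was lower in MB468res-R8 (-1.20 ± 0.19) as IRF7 was, and IRF9 was higher (0.34 ± 0.12). At 12 h IRF2, which competes with IRF1 for its sites, rose in both lines (0.44 ± 0.08 in MB468 and 0.77 ± 0.08 in MB468res-R8). IRF3 fell in MB468 (-0.43 ± 0.05).

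Of 29 genes listed as targets of IRF1 and interferon gamma 18 were tested. At 0 h 5 were higher and 3 lower in MB468res-R8 (among all genes, 26.4% and 27.1%), led by the GTPase gene GBP3 (1.58 ± 0.14) and by HLA-B (-1.37 ± 0.06), whose reads may be split among HLA genes of similar sequence. At 12 h 1 rose and 7 fell in MB468, against 36.1% and 34.7% of all genes, and 3 rose and 8 fell in MB468res-R8, against 30.2% and 31.1%. GBP2 went from 389 ± 19.3 to 68.1 ± 8.71 normalized counts in MB468 (-2.49 ± 0.11, adjusted p = 8.02e-23). In MB468res-R8 it went from 581 ± 31.2 to 222 ± 21.5 normalized counts (-1.39 ± 0.09, adjusted p = 2.67e-16). The difference of these responses was 1.10 ± 0.14 (adjusted p = 1.89e-08). Any part of IRF1 in the GBP2 falls was not tested. GBP1 fell in both lines (-1.31 ± 0.13 and -0.92 ± 0.14).

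The genes whose pattern was most like that of a member were found by Pearson correlation of log2 CPM over the 24 libraries. For OAS1 they were PGD (0.99), AGTRAP (0.99), and EIF2AK1 (0.99), for IRF1 CCL20 (0.95), AMOTL2 (0.92), and KIAA0922 (0.91), and for IFIT2 FAM120AOS (0.95), PCNXL2 (0.93), and TMTC2 (0.93). For MX1 they were FILIP1 (0.95), CLDN1 (0.95), and DNAJB2 (0.93), for ISG15 PKD1L2 (0.94), P4HTM (0.94), and CD14 (0.94), and for IFIT1 PAK1 (0.93), PHLDB1 (0.93), and ATP2B4 (0.93). IFIT3 was most like KBTBD2, KLHL36, and VANGL1 (all 0.92). IRF7 (FAM234B, 0.83) and IFI6 (MESP1, 0.75) had weaker partners. The points share groups of 3 libraries, so these values describe the groups as much as the genes.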

How the data were processed

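The authors aligned single-end reads of poly(A) RNA with HISAT2 2.1.0 to GRCh38/hg38 with the ERCC spike-ins added, and gene counts came from featureCounts (Subread 1.5.3, per the submitters' processing notes). The deposited table holds these raw counts per gene for 24 libraries, without normalization. The annotation release and the strand setting are not given in the sources used here. The authors' normalized values and their table of DESeq2 results (log2 fold changes, standard errors, statistics, and p-values) were not used.

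The 92 spike-ins were left out. In R 4.3.3 with edgeR 4.0.16, 14741 genes passed filterByExpr with a minimum count of 10 and a minimum total of 15, library sizes were scaled by TMM, and a robust quasi-likelihood model with a mean for each of 8 groups gave 11 contrasts. Benjamini-Hochberg adjustment covered all genes tested, and a gene was called at an adjusted p under 0.05. The standard error is the log2 fold change divided by the root of F, and the 95% interval is 1.96 standard errors to each side. The code was tested on simulated data. The 9 genes and the lists were chosen with earlier results of these data known. Named genes beyond the 9 are at most 3 per direction, list, and comparison, by size among those called with a mean of at least 1 CPM, plus receptor, JAK-STAT, and IRF genes, of which some are not reported here. OASL, IFIT5, and STAT2 were followed over all groups after their values were seen.

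Per-length levels used the main transcript of GENCODE release 44. Alternatives were DESeq2 1.42.0 size factors and Wald test, spike-in totals, a spike-in factor as covariate, other filters, fewer groups, a replicate block, a stricter adjusted p of 0.01, and leaving out each library. Thinning all libraries to 11713037 counts was chosen once the data had been examined. The replicate numbers come from the library titles. Same-numbered libraries deviated from their group means with mean correlations of -0.14 to 0.27 over the comparisons, and in no comparison did every pair exceed 0.1, so the libraries were not treated as paired.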

Additional observations from a re-analysis of the deposited data

Results flagged for a closer look

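In 5 instances the response to Met-Hcy+ medium differed between MB468res-R8 and MB468 by the contrast of the 2 responses. Among all genes 2.19% were more positive and 2.88% more negative in MB468res-R8 at 2 h, and 26.2% and 30.3% at 12 h. For IRF1 the log2 difference was -0.49 at 2 h (adjusted p = 0.00250) and -1.01 at 12 h (adjusted p = 5.47e-10), in libraries of which every one of MB468res-R8 at 12 h lay below every one of MB468. For IFIT2 it was -2.56 at 12 h (adjusted p = 5.72e-07), for MX1 -0.65 (adjusted p = 6.12e-07), and for OAS1 0.94 (adjusted p = 0.00194). No explanation was tested for any of them.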

How the results depend on the processing

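Of the 99 log2 fold changes (9 genes in 11 comparisons) 37 were called, and 28 of the 37 kept their call in all 24 fits that left out a library. The shares of all genes called are those given above for each comparison, and the share of all calls that were kept was not computed. With all other settings kept, the number of genes called moved by more than 1.5 times as follows. A filter of at least 10 counts in every library, which keeps 5 of the 9 genes, left 4 of 7 at 0 h, 3 of 5 in MB468 at 12 h, and 3 of 6 between the lines at 12 h. For MB468 at 2 h the count fell from 3 to 1 with an adjusted p of 0.01, without a low-count filter, with DESeq2's Wald test, with only the groups compared, and with thinned libraries, and it ranged from 1 to 4 when a library was left out. The value 1 came without MB468 0 h replicate 2, MB468 0 h replicate 3, or MB468 2 h replicate 3. Thinning, a single random draw, gave 2 of 4 in MB468 at 0.5 h, 1 of 3 in MB468res-R8 at 0.5 h, and 1 instead of 0 in MB468res-R8 at 2 h, and it raised the IFIT1 difference at 12 h to 3.36 (adjusted p = 0.000957). Leaving out a library gave 6 to 7 genes at 0 h, 3 to 4 in MB468 at 0.5 h, 4 to 5 at 12 h, 2 to 3 in MB468res-R8 at 0.5 h, 0 at 2 h, and 3 to 5 at 12 h, and for the differences of the responses 0 at 0.5 h, 1 at 2 h, and 4 to 5 at 12 h. Between the lines at 12 h it gave 6 to 7.

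Spike-in totals as library sizes moved the median of all genes to -0.31 at 0 h and to -0.20, -0.42, and -0.23 in MB468 at 0.5, 2, and 12 h, and for the differences of the responses to 0.26, 0.38, and 0.20. The median between the lines at 12 h moved to -0.11. They turned IRF1 in MB468 at 2 h from 0.30 to -0.13, left 0 calls in MB468res-R8 at 0.5 h (from 3) and in the difference at 2 h (from 1), and gave 3 higher and 3 lower genes at 0 h in place of 5 and 2, 0 and 3 in MB468 at 2 h in place of 1 and 2, 1 and 4 at 12 h in place of 2 and 3, and 2 and 2 for the 12 h difference in place of 1 and 3. The causes were not tested.

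With the replicate number as a block, which the check of the pairing did not call for, 97 of the 99 values kept their side of the threshold, and the counts of genes called were 7 at 0 h, 5 in MB468 and 4 in MB468res-R8 at 12 h, and 2 in MB468 at 2 h and 2 in MB468res-R8 at 0.5 h, where OAS1 (-0.65, adjusted p = 0.0588) and IFIT3 (0.35, adjusted p = 0.0550) lost their calls. Genes with few reads (IFIT1, IFIT2, IRF7, and IFI6) limit what these depths can show.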
